A study of Homo sapiens with 4 samples.

Results

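The MYC, MAX and MXD network is described here by 10 genes that encode basic helix-loop-helix leucine zipper transcription factors, MYC, MAX, MXD1, MXI1, MXD3, MXD4, MNT, MGA, MLX and MLXIP. They were chosen by name, with earlier results of these data known, and each matched 1 of the 63677 genes in the count files. All 10 passed the low-count filter, which kept 15398 genes. The data are poly(A) RNA-seq libraries of IMR90, a line of human lung fibroblasts, transfected with a non-targeting control siRNA (NTC) or with siRNA against HMGB1 for 72 h. HMGB1 is a DNA-bending nuclear protein that also binds RNA and is secreted as an alarmin, and the comparison asks what its loss changes in the transcriptome. Each group holds 2 libraries, 1 for each of the isolates I90-10 (replicate 1) and I90-79 (replicate 2), both at passage 5. Both groups were therefore transfected and differ by the target of the siRNA, and the knockdown was transient. With 1 library for each isolate and treatment, p-values measure the spread between these samples.

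MAX is the obligate partner of most proteins of this network. MYC-MAX dimers bind the E-box CACGTG and recruit coactivators such as TRRAP and histone acetyltransferases, and genes for ribosome biogenesis, metabolism and the cell cycle are among those they activate. MXD1, MXI1, MXD3, MXD4 and MNT also dimerise with MAX, bind the same sequence and recruit SIN3 and histone deacetylases, so that they oppose MYC at shared sites, while MGA carries MAX into a Polycomb-related repressive complex. MLX is a MAX-like protein that pairs with MLXIP (also called MondoA), a sensor of glucose phosphates. MLXIP-MLX dimers bind paired E-box-like sequences, called carbohydrate response elements, in the promoters of TXNIP and ARRDC4, which restrain glucose uptake. In fibroblasts, MYC is known as an early-response gene to serum and MXD proteins as factors of growth arrest.

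The binding sequence of the network is shown first, where it stands in the promoters of the network's own genes. Promoters, from 250 bases before to 50 after a start site, came from RefSeq (GRCh38.p14) and were found for 9 members, with MYC not among them. The E-box CACGTG was searched for on both strands, and 7.26% of 35116 promoters in the table hold it. Among the members it stands in the promoters of MXD4, MNT and MLX, and it also stands in that of ARRDC4. The carbohydrate response element was searched for on both strands as CACGNG followed after 5 bases by CNCGNG, a form found in 0.501% of the same promoters, and it stands in a promoter of TXNIP and in 1 of the 3 promoters of MXI1. The promoter of ARRDC4 held no match to this longer form. Capitals mark the match in each window of 30 bases, written 5′ to 3′ on the strand of the gene.
MXD4, chr4:2262330-2262359, minus strand: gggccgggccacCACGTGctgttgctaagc
MNT, chr17:2401236-2401265, minus strand: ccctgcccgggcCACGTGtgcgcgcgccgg
MLX, chr17:42567038-42567067, plus strand: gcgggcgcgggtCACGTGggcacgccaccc
ARRDC4, chr15:97960481-97960510, plus strand: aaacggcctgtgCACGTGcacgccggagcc
TXNIP, chr1:145996644-145996673, minus strand: gatgtgCACGAGGGCAGCACGAGcctccgg
MXI1, chr10:110210155-110210184, plus strand: gccccgCGCGGGGCGGGCCCGTGgcggcgt
The E-box begins 238 bases before the start site in MXD4, 193 in MNT, 50 in MLX and 210 in ARRDC4. In MXI1 the match reads on the opposite strand. The longer form can hold CACGTG itself, but does not in these windows of TXNIP and MXI1. A match of letters is a description of these windows, and binding was not measured.

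Between 29861687 and 35317010 reads were counted on genes in a library, and the 10 most abundant genes took 5.63% to 8.52% of them. Values below are CPM, a library's reads on a gene relative to all its counted reads, scaled with TMM factors, and changes are log2-fold changes of knockdown over control from edgeR's quasi-likelihood test, with their standard error (SE) and with p adjusted over all genes tested by the method of Benjamini and Hochberg. Genes were called where the adjusted p was below 0.01 and the log2-fold change was over 0.6 in size. HMGB1 (ENSG00000189403) was at 181.2 and 237.0 CPM in control and at 16.0 and 18.9 CPM upon knockdown. It fell by 3.59 on the log2 scale (SE 0.19, edgeR adjusted p = 0.0075), with no overlap between the groups, and its adjusted p was 0.0487 or 0.0324 when knockdown replicate 1 or 2 was left out. The summed CPM of 10 fibroblast markers was 45839 and 23996 in control and 39337 and 25086 upon knockdown, high in both isolates and higher in I90-10. None of the 10 was called without the block described below. At an unadjusted p below 0.05 (edgeR) 2 were higher and 0 lower, where 13.6% and 14.7% of all genes tested were. With the block 40% of the markers were called, where 14.5% of all genes tested were. LUM rose while FN1, THY1 and PDGFRB fell by 0.74, 0.99 and 0.68 on the log2 scale, and these genes are named after their values were seen. The groups overlapped in 8 of the 10 markers, and in the other 2 knockdown was higher. Summed markers of epithelial cells reached at most 1.57 CPM, those of endothelial cells 4.88 CPM and those of leukocytes 0.693 CPM, with CDH1, KRT5, CDH5, PTPRC and CD3E at 0 or 1 read in every library.

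No member passed both thresholds in this test, in which 0.201% of all genes tested were called, 0.0649% higher and 0.136% lower. The members divided into those whose knockdown libraries were both above the controls (MYC and MNT), those whose knockdown libraries were both below (MLXIP, MXD4, MXD3 and MXI1), and those whose groups overlapped and whose isolates moved in opposite directions (MAX, MXD1, MGA and MLX), as those of 21.7% of all genes tested did. Across all genes tested, the groups did not overlap in 59.9%, so the 6 of 10 members without overlap are close to the background. At an unadjusted p below 0.05 there were 1 higher and 2 lower members, MYC, MXD3 and MLXIP, while 28.3% of all genes tested passed that limit. Since the same isolates stand in both groups, the test was also fitted with the isolate as a block, which leaves 1 residual degree of freedom. With this replicate block 14.5% of all genes tested were called, and 1 of the 10 members, MLXIP, was among them as a lower gene. MLXIP was also the 1 member called lower when the limit for the adjusted p was 0.05, where 8.07% of all genes tested were called and 4.34% were lower. After RUVs and DESeq2, the procedure named in the study's methods, 5.69% of all genes tested were called higher and 6.07% lower, and 0 members in either direction. The median log2-fold change of the members was −0.09, against −0.0054 over all genes tested.

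**Figure D1:**
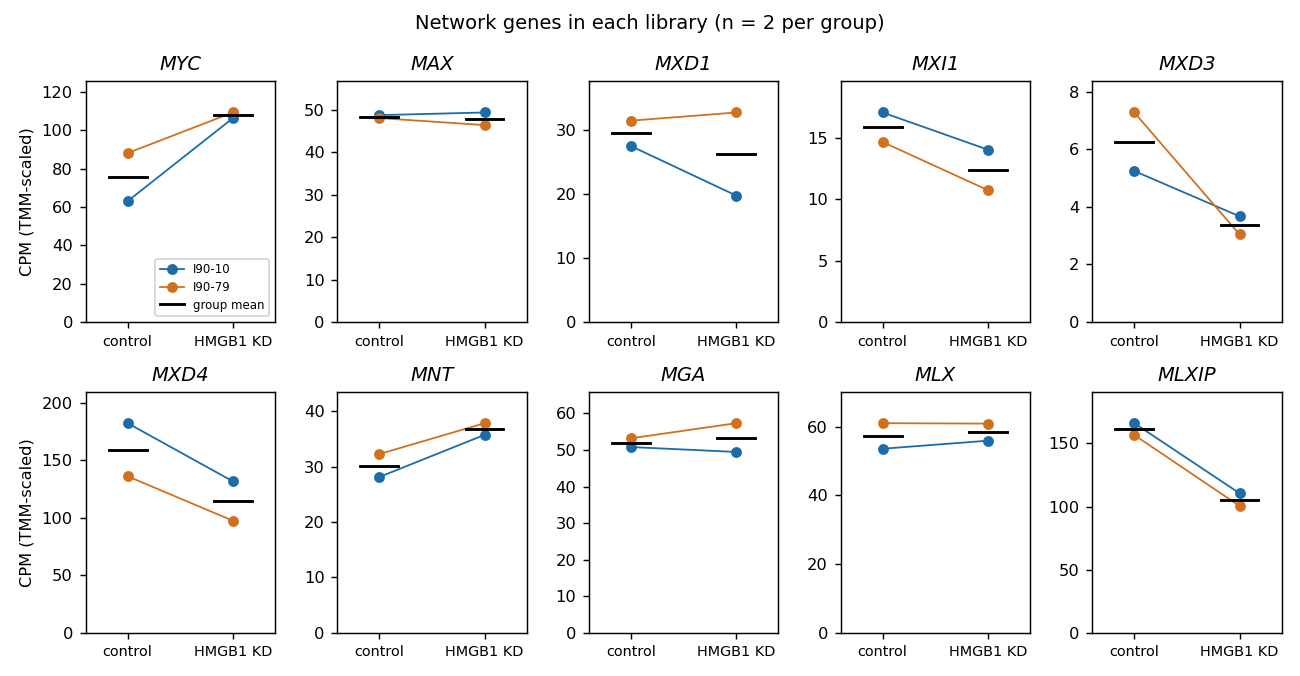
TMM-scaled CPM of the 10 network genes (vertical axes, linear and starting at 0) in control and HMGB1 knockdown libraries, with blue points for isolate I90-10, orange points for I90-79, lines joining libraries of 1 isolate and black bars for group means (n = 2). Both lines climb for MYC and MNT, both descend for MXI1, MXD3, MXD4 and MLXIP, and the lines of MAX, MXD1, MGA and MLX diverge or stay near level.

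MYC (ENSG00000136997, hg19 chromosome 8, 128747680 to 128753674, plus strand), the activating arm of the network, was at 63.0 and 88.1 CPM in control and at 106.3 and 109.3 CPM upon knockdown. These are 1852 and 3247 reads in control and 3071 and 3413 upon knockdown. Both knockdown libraries lay above both controls, and the controls differed more from each other than the knockdown libraries did. The log2-fold change was 0.51 (SE 0.18, edgeR adjusted p = 0.141), which did not pass the test, and with the replicate block it was 0.53 (edgeR adjusted p = 0.013), still short of both thresholds. Within I90-10 the log2 ratio was 0.75 and within I90-79 it was 0.31. Leaving out 1 library gave 0.29 at the lowest, without control replicate 1, and 0.77 at the highest, without control replicate 2. The summed CPM of 12 proliferation markers was 639.6 and 1154 in control and 693.7 and 879.7 upon knockdown, lower in I90-10 within both groups as MYC was, and the groups overlapped. Of these 12 markers, 7 had a log2-fold change above 0 and 5 below, with a median of 0.09. With the block 0 rose and 1 fell, or 8.33% of them, where 14.5% of all genes tested were called. This was PCNA, the sliding clamp of DNA replication, named after its values were seen. It fell by 0.99 on the log2 scale with the block (edgeR adjusted p = 6.1e-04). Without the block its log2-fold change was −1.01 (edgeR adjusted p = 0.0320). After RUVs and DESeq2, 4 of the 12 markers were called lower and 0 higher, where 6.07% of all genes tested were lower. The part of cell cycle state in the MYC values was not tested. In bulk RNA, fewer cells that express a gene and less of its RNA per cell cannot be told apart.

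The paralogs of MYC added little RNA in these cells. MYCN had 0 reads in all 4 libraries, which allows up to 3 counts or 0.1 CPM in a library of this depth, counting error only. MYCL, with 35 and 41 reads in control and 29 and 21 upon knockdown, had a log2-fold change of −0.46 (SE 0.37, edgeR adjusted p = 0.464).

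MAX (ENSG00000125952, chromosome 14, 65472892 to 65569413, minus strand), the shared dimerisation partner, was at 48.8 and 48.1 CPM in control and at 49.4 and 46.4 CPM upon knockdown. The 4 libraries were within a few CPM of each other and the groups overlapped. Its log2-fold change was −0.02 (SE 0.11, edgeR adjusted p = 0.943).

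Among the MXD genes, the lower values upon knockdown were found for MXD4, MXD3 and MXI1, and none of the family was called. MXD4 (ENSG00000123933, chromosome 4, 2249159 to 2264021, minus strand), a repressor of the family found in differentiated and resting cells, was at 182.2 and 136.1 CPM in control and at 131.7 and 97.4 CPM upon knockdown. Each isolate was lower upon knockdown by a like step, 0.47 on the log2 scale in I90-10 and 0.48 in I90-79, while I90-79 was below I90-10 in both groups. The lower control library stood just above the higher knockdown library. The log2-fold change was −0.47 (SE 0.21, edgeR adjusted p = 0.218). With the replicate block it was −0.48 (edgeR adjusted p = 0.0059), past the limit for p but under that for the fold change.

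MXD3 (ENSG00000213347, chromosome 5, 176728462 to 176739758, minus strand), a member of the family expressed in cycling cells, was at 5.2 and 7.3 CPM in control and at 3.7 and 3.0 CPM upon knockdown. These are 154, 268, 106 and 95 reads, the fewest of any member, and the groups did not overlap. The log2-fold change, −0.90 (SE 0.26, edgeR adjusted p = 0.0999), was the largest in size among the members but did not pass the test, and with the block it was −0.89 (edgeR adjusted p = 0.022). Within the isolates the log2 ratio was −0.51 in I90-10 and −1.24 in I90-79. In the annotation, 40.4% of the exonic bases of MXD3 overlap RAB24 on the same strand or PRELID1 on the opposite strand. RAB24 had 243 and 250 reads in control and 154 and 203 upon knockdown, PRELID1 had 1889 to 2919 reads, and the setting for the strand is not given in the sources used here, so the level of MXD3 is uncertain.

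MXI1 (ENSG00000119950, chromosome 10, 111967363 to 112047123, plus strand), a repressor of the family whose other name is MXD2, was at 17.1 and 14.7 CPM in control and at 14.1 and 10.8 CPM upon knockdown. The groups did not overlap by a narrow margin. The log2-fold change was −0.36 (SE 0.20, edgeR adjusted p = 0.296), and −0.36 with the block (edgeR adjusted p = 0.073).

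MXD1 (ENSG00000059728, chromosome 2, 70124820 to 70170077, plus strand), the founding member of the family and a gene induced in differentiation, was at 27.5 and 31.5 CPM in control and at 19.8 and 32.8 CPM upon knockdown. Only the knockdown library of I90-10 was low, and the other 3 libraries lay together. The log2-fold change of −0.17 (SE 0.26, edgeR adjusted p = 0.712) became 0.15 without knockdown replicate 1, so its sign rested on 1 library. SNRNP27, on the same strand, shares 237 exonic bases with MXD1, and SNRNP27 had 955 and 1347 reads in control and 283 and 308 upon knockdown.

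**Figure D2:**
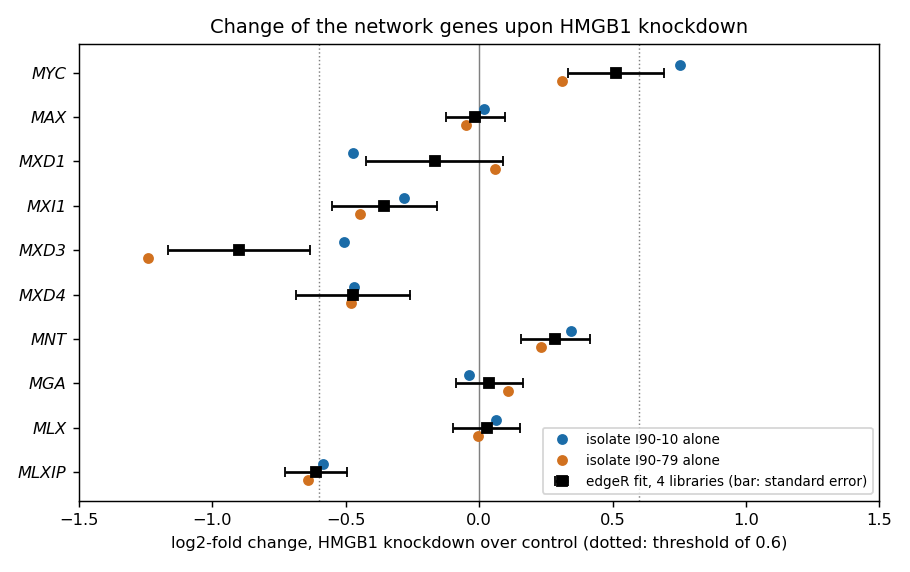
Log2-fold change of HMGB1 knockdown over control (horizontal axis) for each network gene, with black squares and bars for the edgeR estimate from 4 libraries and its standard error, blue and orange points for the ratio within isolates I90-10 and I90-79, and dotted lines at the threshold of 0.6. MXD3 and MLXIP lie past −0.6, and the isolates lie on opposite sides of 0 for MAX, MXD1, MGA and MLX.

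MNT (ENSG00000070444, chromosome 17, 2287354 to 2304412, minus strand), a MAX-bound repressor present in cycling and resting cells alike, was at 28.2 and 32.3 CPM in control and at 35.8 and 37.9 CPM upon knockdown. Both knockdown libraries were above both controls, as for MYC. The log2-fold change was 0.28 (SE 0.13, edgeR adjusted p = 0.222), and 0.29 with the block (edgeR adjusted p = 0.069). MGA (ENSG00000174197, chromosome 15, 41913422 to 42062141, plus strand), a large factor with a T-box domain beside its MAX-binding domain, was at 50.8 and 53.2 CPM in control and at 49.4 and 57.3 CPM upon knockdown. Its groups overlapped, with a log2-fold change of 0.04 (SE 0.13, edgeR adjusted p = 0.873).

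On the MLX arm, MLXIP was lower in both isolates upon knockdown and MLX was not separated. MLXIP (ENSG00000175727, chromosome 12, 122516628 to 122631894, plus strand) was at 166.0 and 156.7 CPM in control and at 110.5 and 100.4 CPM upon knockdown. The libraries of each group lay close together, and the gap between the groups was several times the gap within them. The log2-fold change was −0.61 (SE 0.12), with an edgeR adjusted p of 0.0413, so the gene was not called without the block. It fell by 0.61 on the log2 scale and was called with the replicate block (edgeR adjusted p = 0.0018). Within I90-10 the log2 ratio was −0.59 and within I90-79 it was −0.64. The change lies at the fold threshold, and after RUVs and DESeq2 it was −0.58 (adjusted p = 2.8e-04) and not called.

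MLX (ENSG00000108788, chromosome 17, 40719086 to 40725257, plus strand) was at 53.6 and 61.1 CPM in control and at 56.0 and 60.9 CPM upon knockdown. The difference between the isolates was larger than that between the groups, which overlapped. Its log2-fold change was 0.03 (SE 0.13, edgeR adjusted p = 0.909). In the annotation, 18.1% of the exonic bases of MLX overlap PSMC3IP on the opposite strand, which had 113 to 309 reads. MLXIPL, the paralog of MLXIP known as ChREBP in liver, had 3 reads in control replicate 2 and 0 in the other libraries, at the floor of 3 counts.

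The targets of MLXIP-MLX gave unlike values. TXNIP (ENSG00000117289, hg19 chromosome 1, 145438469 to 145442635), which binds thioredoxin and lowers glucose transport, was at 386.5 and 294.2 CPM in control and at 156.4 and 161.6 CPM upon knockdown. Both knockdown libraries were well below both controls. The log2-fold change was −1.10 (SE 0.17, edgeR adjusted p = 0.0265), and the gene was called lower with the replicate block (−1.08, edgeR adjusted p = 4.9e-04). ARRDC4, a related arrestin-domain gene, was at 63.7 and 47.1 CPM in control and at 45.9 and 48.5 CPM upon knockdown. Only control replicate 1 was high, the groups overlapped, and the log2-fold change was −0.23 (SE 0.17, edgeR adjusted p = 0.431). It became 0.0020 without control replicate 1. A test of the difference between TXNIP and ARRDC4 was not made.

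**Figure D3:**
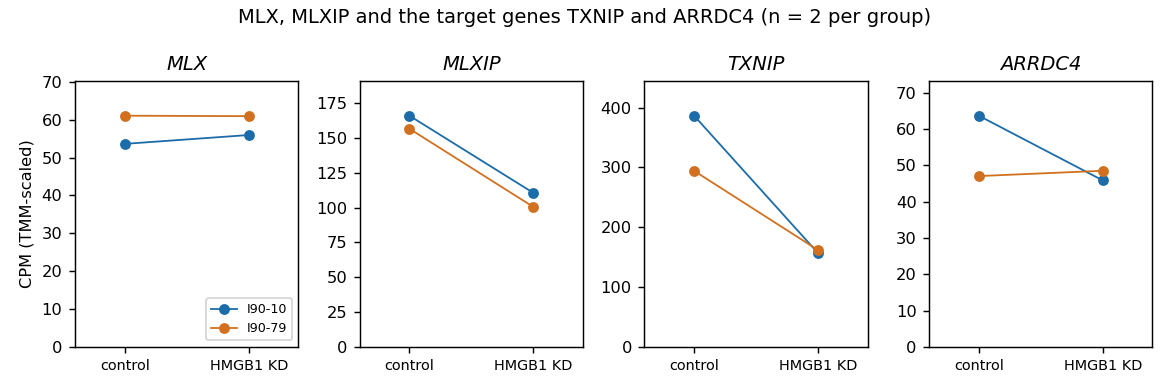
TMM-scaled CPM (vertical axes, linear and starting at 0) of MLX, MLXIP and the target genes TXNIP and ARRDC4 in control and HMGB1 knockdown libraries, with blue points for isolate I90-10 and orange points for I90-79. MLXIP and TXNIP are lower upon knockdown in both isolates, while MLX stays level and ARRDC4 is lower in I90-10 alone.

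Levels were compared between genes per length, as TPM, in which reads per kilobase of exon are scaled to the same total in each library. In control, MYC had the highest mean level of the 10 genes at 107 ± 27.1 TPM (SD, n = 2), followed by MXD4 at 95.0 ± 17.6 TPM, and their ranges overlapped. MLX at 56.9 ± 6.37 TPM, MLXIP at 49.0 ± 1.02 TPM and MAX at 46.1 ± 0.466 TPM formed the middle of the order without overlap. MXD1 followed at 19.7 ± 2.27 TPM, then MGA at 15.1 ± 0.799 TPM, MNT at 14.6 ± 1.71 TPM and MXI1 at 14.5 ± 1.27 TPM, each overlapping the next from MGA to MXI1, and MXD3 was lowest at 5.14 ± 1.28 TPM. Upon knockdown MYC was at 144 ± 6.75 TPM and MXD4 at 64.8 ± 11.9 TPM, and these ranges were apart. MLXIP, at 30.3 ± 1.22 TPM, then stood below MAX, at 43.3 ± 0.713 TPM.

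The 7 genes whose products compete for MAX were added up to see how their transcripts were divided. Their summed level was 260.9 and 281.2 TPM in control and 269.2 and 272.2 TPM upon knockdown, so the groups overlapped in the sum. MYC made up 33.6% and 44.8% of it in control and 51.8% and 54.7% upon knockdown. MXD4 made up 41.2% and 29.4% in control and 27.2% and 20.7% upon knockdown. The share of MYC was higher and that of MXD4 lower in both knockdown libraries than in either control. The 4 MXD genes together held 55.7% and 44.0% in control against 37.3% and 32.9% upon knockdown. The ratio of MYC to the 4 MXD genes was 0.603 and 1.02 in control and 1.39 and 1.67 upon knockdown, without overlap. Shares of a sum depend on each other, so these separations are not separate results. In CPM, the groups did not overlap in 59.9% of all genes tested. MXD1, at 6.94% and 7.59% against 4.56% and 7.77%, and MGA, at 5.58% and 5.58% against 4.97% and 5.92%, overlapped in their shares. With 2 libraries in each group the smallest p of an exact permutation test, two-sided, is 0.333, so these shares are a description. The ratio of MAX to the summed partners was 0.176 and 0.165 in control and 0.163 and 0.157 upon knockdown, and that of MLXIP to MLX was 0.948 and 0.786 against 0.605 and 0.505. Shares of RNA say nothing of protein, and MYC protein in particular is short-lived.

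**Figure D4:**
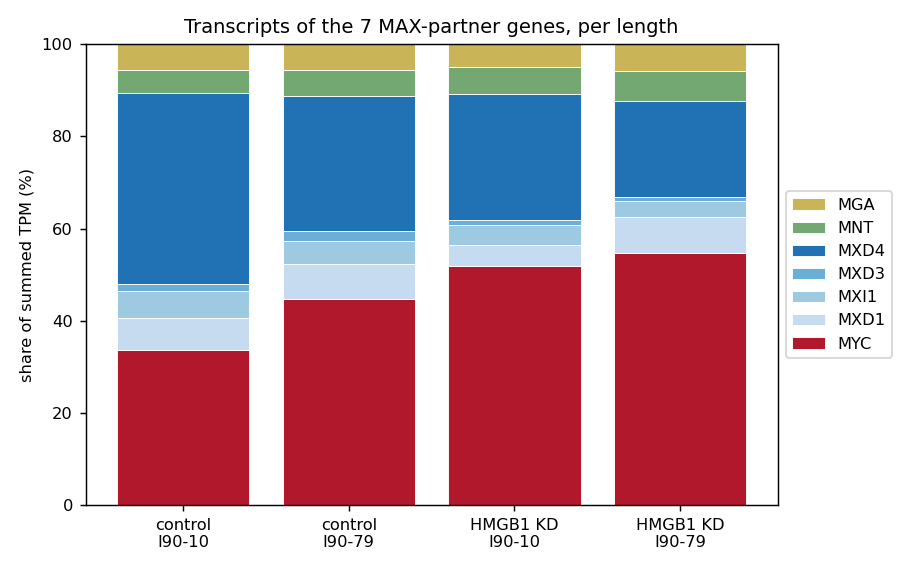
Share of the summed TPM of the 7 MAX-partner genes (vertical axis, percent) in each of the 4 libraries, stacked by gene. The MYC segment is 33.6% and 44.8% in control against 51.8% and 54.7% upon knockdown, and the MXD4 segment is 41.2% and 29.4% against 27.2% and 20.7%.

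The genes around the network were described by lists, which were also chosen with earlier results of these data known. Of 50 genes known to be activated by MYC, 49 were tested, and TERT, with 0 reads, was not. Of these, 38 had a log2-fold change above 0 and 11 below, or 77.6% above 0 where 49.6% of all genes tested were, and their median was 0.35. In 25 genes the groups did not overlap with knockdown higher and in 4 with knockdown lower, where 29.8% and 30.2% of all genes tested did so. None was called without the block (edgeR), while 16 were higher and 3 lower at an unadjusted p below 0.05, beside 13.6% and 14.7% of all genes tested. With the block 7 rose and 1 fell, or 16.3% of the genes tested in the list, close to the 14.5% of all genes tested. Of all genes tested, 6.68% were called higher and 7.84% lower with the block. The 3 genes with the smallest p were TFRC, SHMT2 and HK2. TFRC, the transferrin receptor for iron uptake, went from 159.4 and 205.6 CPM in control to 641.2 and 672.4 CPM, a log2-fold change of 1.85 (SE 0.17, edgeR adjusted p = 0.0113, 4.5e-05 with the block). SHMT2, the mitochondrial enzyme that makes one-carbon units from serine, went from 65.4 and 55.7 to 181.4 and 166.1 CPM, a log2-fold change of 1.52 (SE 0.13, edgeR adjusted p = 0.0104, 5.2e-05 with the block). HK2, the hexokinase that traps glucose in cells, was at 57.2 and 69.6 CPM in control and 140.5 and 240.9 CPM upon knockdown (log2-fold change 1.59, SE 0.28, edgeR adjusted p = 0.0358, 1.4e-04 with the block). These 3 genes stood well above all controls in both knockdown libraries. The others called higher with the block were WDR12, ODC1, HSPE1 and EIF2S1, with log2-fold changes from 0.62 to 0.68, and CCND2 was the 1 called lower. These 5 are named after their values were seen. Without the block the edgeR adjusted p was 0.0993 for WDR12, 0.157 for ODC1, 0.138 for HSPE1 and 0.0420 for EIF2S1. In CCND2 the groups overlapped, at 23.8 and 7.57 CPM in control and 13.6 and 5.00 CPM upon knockdown (edgeR adjusted p = 0.514 without the block). In the promoter table, 23 of the 40 genes of the list with an entry hold CACGTG, or 57.5%, where 8.77% of 27305 genes do. The 27305 are all genes with an entry, not only those tested here. The list was made of genes already known as targets of MYC, so this share describes the list and not the knockdown.

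Of 13 genes known to be repressed through MYC, several by way of its partner ZBTB17 (MIZ1), 5 had a log2-fold change above 0 and 8 below, with a median of −0.31. CDKN2B, which encodes the CDK4 and CDK6 inhibitor p15, was called in both fits. It was at 34.8 and 38.4 CPM in control and at 153.2 and 160.7 CPM upon knockdown, and rose by 2.10 on the log2 scale (SE 0.12, edgeR adjusted p = 0.0075). The groups were far apart. Leaving out knockdown replicate 1 gave a log2-fold change of 2.13 (edgeR adjusted p = 0.0487) and leaving out knockdown replicate 2 gave 2.07 (edgeR adjusted p = 0.0334), so the call was lost while the fold change stayed near its value. Over the list, 1 gene was higher and 3 were lower at an unadjusted p below 0.05 (edgeR), where 13.6% and 14.7% of all genes tested were. The groups did not overlap in 3 genes with knockdown higher and in 3 with knockdown lower, where 29.8% and 30.2% of all genes tested did so. With the block, 2 genes of the list rose and 5 fell, or 53.8% of the list, beside 14.5% of all genes tested. NDRG1, a stress and differentiation gene, had a log2-fold change of −0.85 (SE 0.14, edgeR adjusted p = 0.0299, 5.0e-04 with the block), and GADD45A, a growth arrest gene induced by DNA damage, had −1.01 (SE 0.18, edgeR adjusted p = 0.0355, 0.0018 with the block). THBS1, PDGFRB and ITGB1, which encode a matrix glycoprotein, a growth factor receptor and an integrin chain, were also called lower with the block, and CLU, a secreted chaperone, higher. The groups overlapped in THBS1, PDGFRB and CLU (edgeR adjusted p = 0.332, 0.277 and 0.362 without the block). In ITGB1 they did not overlap (edgeR adjusted p = 0.0390 without the block). These genes are named after their values were seen, and PDGFRB also stands among the fibroblast markers, of which 40% were called with the block.

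Among 17 coactivators and partners of MYC, 12 had a log2-fold change above 0 and 5 below, with a median of 0.04, and none was called without the block (edgeR, with 2 higher and 0 lower at an unadjusted p below 0.05, a limit passed by 28.3% of all genes tested). With the block 1 rose, or 5.88% of the list, below the 14.5% of all genes tested. This was KAT2A, the histone acetyltransferase GCN5, at 27.7 and 33.7 CPM in control and 48.4 and 49.3 CPM upon knockdown, with a log2-fold change of 0.67 (SE 0.14, edgeR adjusted p = 0.0501, 0.0027 with the block). CDK9, the kinase that releases paused RNA polymerase II, had a log2-fold change of 0.34 (SE 0.12, edgeR adjusted p = 0.141), and ZBTB17 had 0.24 (SE 0.11, edgeR adjusted p = 0.226), and neither passed the test.

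Among 24 corepressors of MXD, MNT and MGA, 10 had a log2-fold change above 0 and 14 below, with a median of −0.08. None was called without the block (edgeR, with 2 higher and 5 lower at an unadjusted p below 0.05, where 13.6% and 14.7% of all genes tested were). With the block 1 rose and 3 fell, or 16.7% of the list, close to the 14.5% of all genes tested. RYBP, a subunit of the Polycomb-related complex that holds MGA, was at 57.5 and 50.2 CPM in control and 27.8 and 24.6 CPM upon knockdown (log2-fold change −1.04, SE 0.14, edgeR adjusted p = 0.0200, 2.6e-04 with the block). YAF2, its paralog, was at 10.8 and 10.7 CPM in control and 4.54 and 4.90 CPM upon knockdown (log2-fold change −1.18, SE 0.18, edgeR adjusted p = 0.0265, 0.0013 with the block). E2F6, a repressive E2F protein named after its values were seen, had a log2-fold change of −0.65 (edgeR adjusted p = 0.0867, 0.0052 with the block). SAP30, a subunit of the SIN3 complex, went the other way, from 7.12 and 7.03 CPM to 14.4 and 15.7 CPM, a log2-fold change of 1.09 (SE 0.16, edgeR adjusted p = 0.0257, 0.0011 with the block). The groups did not overlap in any of these genes, which were picked by their p or their call. Over the list, they did not overlap in 7 genes with knockdown higher and in 12 with knockdown lower, where 29.8% and 30.2% of all genes tested did so.

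Among 19 enzymes that act on MYC protein, 12 had a log2-fold change above 0 and 7 below, with a median of 0.10. None was called without the block (edgeR, with 4 higher and 3 lower at an unadjusted p below 0.05, a limit passed by 28.3% of all genes tested). With the block 2 fell, or 10.5% of the list, below the 14.5% of all genes tested. SKP2, a ubiquitin ligase subunit for MYC and for the CDK inhibitor p27, was at 52.9 and 41.4 CPM in control and 20.4 and 21.8 CPM upon knockdown, a log2-fold change of −1.16 (SE 0.16, edgeR adjusted p = 0.0219, 5.2e-04 with the block). PIM1, a kinase that phosphorylates MYC, named after its values were seen, had −1.49 (edgeR adjusted p = 0.0904, 7.8e-05 with the block). GSK3A, which marks MYC for degradation, and USP36, a nucleolar deubiquitinase of MYC, each had a log2-fold change of 0.47, under the fold threshold.

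**Figure D5:**
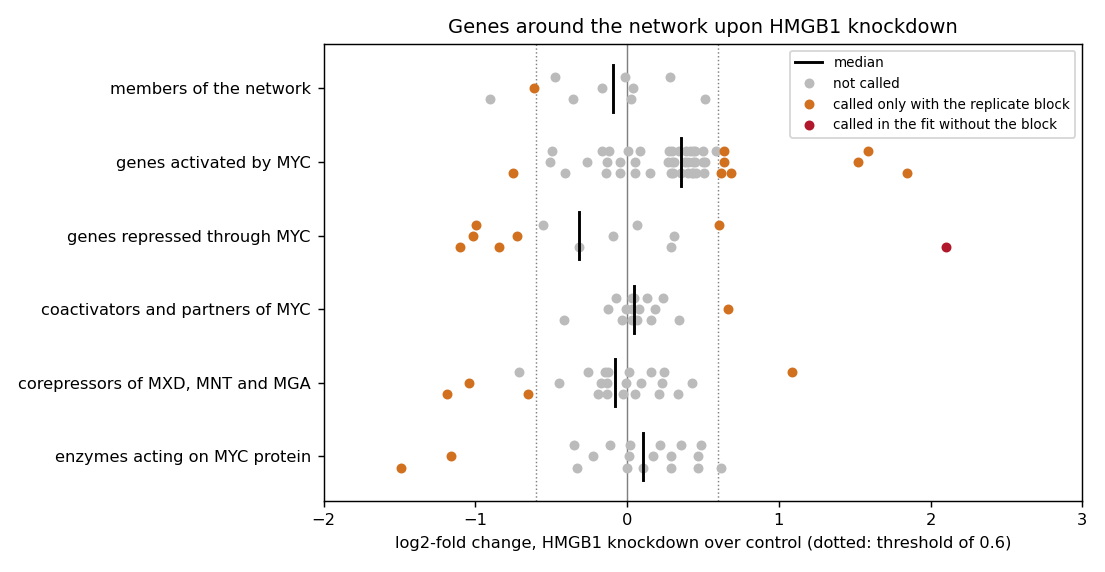
Log2-fold change of HMGB1 knockdown over control (horizontal axis) of every tested gene in the members and in 5 lists around the network, 1 point a gene, with black bars at the median of a list, orange for genes called only with the replicate block, red for the gene called without it (CDKN2B), gray for genes not called and dotted lines at the threshold of 0.6. The median is 0.35 for genes activated by MYC and lies between −0.31 and 0.10 for the others.

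The 3′ UTRs of the members were searched for the word GCAGTT, which was chosen with earlier results of these data known. Across 12684 tested genes with a 3′ UTR of at least 100 bases, 42.2% hold it, and the median log2-fold change was 0.07 for genes with no copy, −0.05 with 1 copy, −0.17 with 2 and −0.26 with 3 or more. MGA holds 4 copies, MYC, MNT and MLXIP hold 2 each, MXD1, MXI1 and MLX hold 1 each, and MAX, MXD3 and MXD4 hold 0. Among the members with 2 copies, the log2-fold change was 0.51 for MYC, 0.28 for MNT and −0.61 for MLXIP, and among those with 0 copies it was −0.02 for MAX, −0.90 for MXD3 and −0.47 for MXD4. MLXIP, the member called with the block, has its copies in the windows below (hg19, plus strand, word in capitals), and TXNIP and CDKN2B hold 0 copies.
MLXIP, chr12:122626817-122626846: tctgcccgtgggGCAGTTggaaggcgtctt
MLXIP, chr12:122631418-122631447: agtttacatcctGCAGTTaaaaggcaggga
Since the word was chosen with earlier results of these data known, the medians by copies are a description and not a test. Copies were counted without regard to the length of the 3′ UTR, and whether the word takes part in these values was not tested.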

How the data were processed

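Poly(A) RNA of 2 control and 2 HMGB1 knockdown libraries was sequenced paired-end by the authors, mapped to hg19 with STAR and counted with featureCounts. The deposited values are raw counts per gene, 1 file a library, without normalization. Tool versions, the strand setting and whether a read pair counted once are not given in the sources used here. In the files, 0 reads stand on mitochondrial genes and outside the primary chromosomes. Gene symbols came from a reference table of gene names, and TXNIP was matched by its coordinates (at least 80% of its length). PECAM1 was not used here.

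Counts were tested with edgeR 4.0.16 (R 4.3.3, limma 3.58.1) after filterByExpr and TMM, with the quasi-likelihood test over 15398 genes. The limits for a call, an adjusted p of 0.01 and a log2-fold change of 0.6 in size, are those of the study's methods. Replicate numbers pair the libraries, since each marks 1 isolate in both groups, and the isolate differences of control and knockdown had a correlation of 0.46 across genes. Replicate libraries differed far beyond sampling noise (chi-square per degree of freedom of 85.8 and 51.2). The fit has no isolate term, as the study's methods name none, and the replicate block is given beside results whose call it changes. Alternatives were DESeq2 1.42.0, RUVs with 1 factor (written out from its description, the number of factors not being stated) before DESeq2, DESeq2 size factors, no filter, a prior count of 0.5 in place of 2, TPM over tested genes, an adjusted p below 0.05 and leaving out each library. TPM used the exonic lengths in the files. The fits were checked on simulated counts.

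The members, the lists and the 3′ UTR word were chosen with earlier results of these data known. Genes named are all members, HMGB1, the paralogs, TXNIP and ARRDC4, and in each list the genes called without the block and the 3 with the smallest p. Other genes named because of a call are marked in the text. With 2 libraries in each group, a library that stands apart from its group could not be tested for. 3′ UTRs were the longest annotated for a gene in GENCODE lifted to GRCh37.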

Additional observations from a re-analysis of the deposited data

Results flagged for a closer look

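The isolates moved in opposite directions for 4 members, as did those of 21.7% of all genes tested, and with 1 library for each isolate and treatment the difference between the isolates was not tested. For MXD1 the log2 ratio of knockdown over control was −0.475 in I90-10 and 0.0573 in I90-79. For MGA it was −0.0387 and 0.108, for MAX 0.0184 and −0.0507, and for MLX 0.0615 and −0.00291. In MAX and MLX both isolates lay within 0.07 of 0.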

How the results depend on the processing

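MLXIP was called at −0.61 with the replicate block, −0.60 without the filter, −0.61 with DESeq2 and −0.61 at an adjusted p below 0.05, and was not called with DESeq2 size factors, after RUVs or when any 1 library was left out. The direction of MYC, MNT, MXD3, MXD4, MXI1 and MLXIP was kept under every alternative run. After RUVs and DESeq2 the sign turned for MAX (0.00061) and MLX (−0.013). Without 1 library the log2-fold change ranged from −0.063 to 0.033 for MAX, −0.57 to 0.15 for MXD1, −0.068 to 0.14 for MGA, −0.065 to 0.13 for MLX, −0.43 to 0.0020 for ARRDC4, 2.03 to 2.17 for CDKN2B and −3.77 to −3.38 for HMGB1, whose adjusted p was 0.0487 and 0.0324 without knockdown replicates 1 and 2.

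Over all genes, 10 were called higher and 21 lower without the block, 1028 and 1207 with the replicate block, 876 and 934 after RUVs and DESeq2, and 575 and 668 at an adjusted p below 0.05. Counts over all genes are not given here for the fit without the filter, for DESeq2 alone or for the fits without 1 library. The counts below for these settings therefore have no background beside them. For the members, 1 was called lower with the block, without the filter, with DESeq2 and at an adjusted p below 0.05. For genes activated by MYC, the block and the fit without the filter called 7 higher and 1 lower, and DESeq2, RUVs and an adjusted p below 0.05 called 4 higher. For genes repressed through MYC, where 1 was called higher and 0 lower, the block and no filter called 2 and 5, RUVs 2 and 3, and DESeq2 and an adjusted p below 0.05 called 3 lower. For coactivators, 1 was called higher with the block, no filter, DESeq2 and RUVs. For corepressors, the block, no filter and RUVs called 1 higher and 3 lower, and DESeq2 and an adjusted p below 0.05 called 1 and 2. For enzymes, 2 were called lower with the block, no filter, DESeq2 and RUVs, and 1 at an adjusted p below 0.05. Without 1 library, 0 to 2 genes activated by MYC were called higher (2 without control replicate 1 or 2), 0 to 1 repressed genes higher (0 without either knockdown replicate), and 0 to 1 repressed genes, 0 to 1 corepressors and 0 to 2 enzymes lower, the latter 3 without control replicate 2. The larger counts of the block and of the unfiltered fit have causes that were not tested. DESeq2 size factors moved the median log2-fold change of all genes by 0.00408. A gene with 3 counts in a library, or 0.0849 to 0.1 CPM, is at the floor of detection.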
